A study of Homo sapiens with 4 samples.

Results

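The B-cell receptor genes described here are the receptor's signalling chains CD79A and CD79B, the kinases LYN, BLK, SYK and BTK, the adaptor BLNK, the inhibitory receptor CD22 and MS4A1, which encodes the B-cell surface protein CD20. All probes whose platform annotation gives one of these symbols were taken, which made 15 probes for 9 genes, out of 47231 probes and 20045 named genes. CD79A, CD79B and MS4A1 had 3 probes each and the other 6 genes had 1 each. The series holds 4 Illumina bead arrays of L591, an established cell line derived from Hodgkin lymphoma. The mock group (2 arrays) received the empty plasmid pcDNA3, and the PDLIM2 group (2 arrays) received pcDNA3 carrying PDLIM2 transcript variant 2, a putative ubiquitin ligase. Both groups were given 40 µg of that plasmid with 10 µg of the GFP plasmid pEGFP-N3, and GFP-positive cells were sorted. Separate cultures are not stated for arrays within a group, so p-values reflect only array-to-array spread, possibly technical. All values come from 1 cell line.

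The B-cell receptor is a membrane immunoglobulin held together with a heterodimer of CD79A and CD79B, whose tails carry the tyrosine motifs that start the signal. SRC family kinases such as LYN and BLK phosphorylate those tyrosines, SYK docks on them, and SYK then phosphorylates the adaptor BLNK, which brings BTK to phospholipase C gamma. CD22 carries inhibitory motifs that recruit a phosphatase and damp the signal. Hodgkin and Reed-Sternberg cells descend from B cells and are known for having lost much of the B-cell programme, receptor components included.

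The values are log2 intensities as the authors deposited them, and no detection p-values were used here. To judge whether a probe read above the dim range, the 437 probes annotated to olfactory receptor genes, a family that lymphoid cells are not expected to use, served as a reference. Their 95th percentile was 6.12 log2 units on the mock array 1 and 6.17 on the mock array 2, and 6.09 and 6.18 on the PDLIM2 arrays 1 and 2. A probe is called above the reference where both arrays of a group exceeded their own percentile, and within it where neither did. This is a description of a probe and no test of silence, since a weak probe can miss a transcript that is present. Probes differ in how brightly they read, so no order of expression between genes is drawn from these values. In bulk RNA, fewer cells that express a gene and less RNA per cell cannot be told apart.

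On the mock arrays 6 of the 9 genes read above the dim reference, and 3 did not. The genes above it were CD79A, CD79B, SYK, LYN, BTK and CD22, with all 10 of their probes. MS4A1, BLNK and BLK had no probe above it: 2 MS4A1 probes lay within the reference on both mock arrays, and the third MS4A1 probe and the BLNK and BLK probes exceeded it on the mock array 1 only. Over all 47230 complete probes, 39.1% were above the reference on both mock arrays, and over the probes with 1 gene symbol 47.5% were. Among the olfactory receptor probes themselves 2.29% were above it. The same 6 genes were above with the 99th percentile of the olfactory receptor probes as the limit, under which MS4A1, BLNK and BLK lay within the reference with all their probes. With genes of other tissues as the reference, the count of member probes above it fell from 10 to 2 (1 of CD79A and that of LYN). That reference was itself bright in these cells: 12 of its 52 probes exceeded the olfactory receptor limit on both mock arrays, and the probes of MBP and PRL in it read over 11 log2 units.

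**Figure D1:**
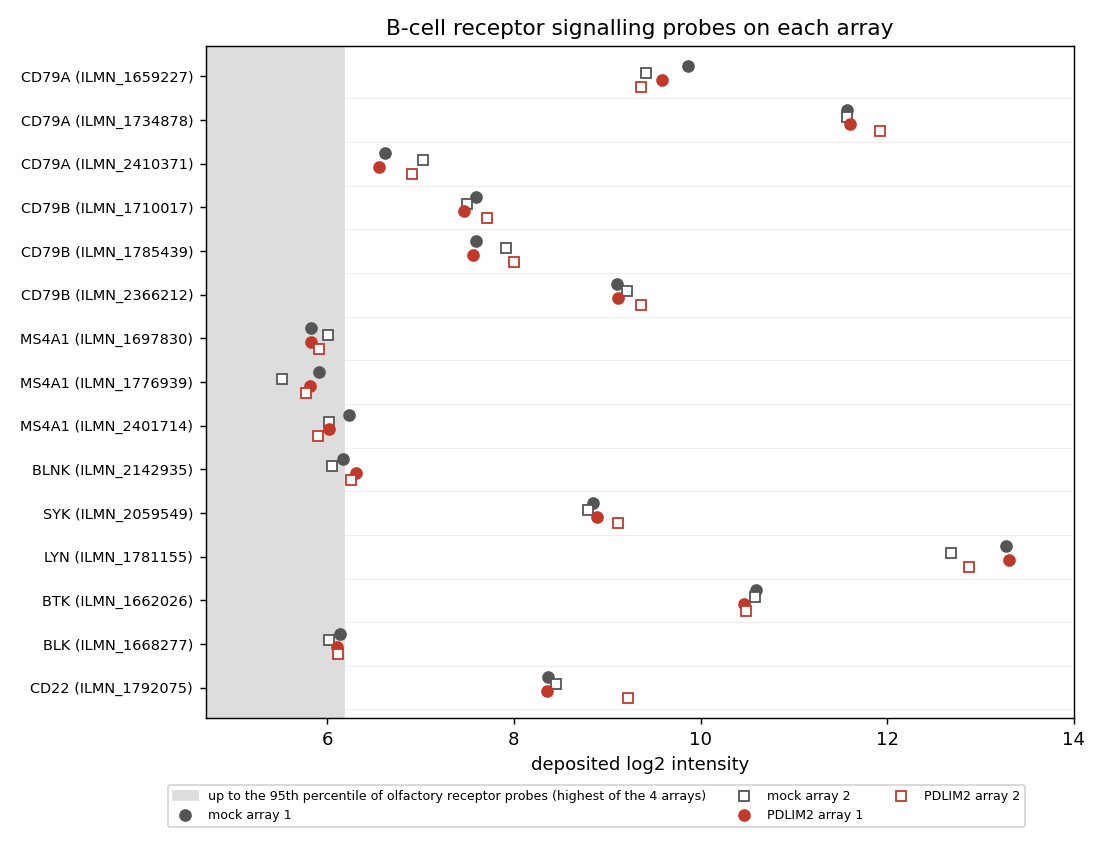
Deposited log2 intensity (horizontal axis) of the 15 probes of the B-cell receptor genes on the mock arrays (grey) and the PDLIM2 arrays (red), with array 1 as filled circles and array 2 as open squares. The grey band runs up to 6.18, the highest of the 4 arrays' 95th percentiles of olfactory receptor probes; the MS4A1 and BLK values lie in or at the edge of it, BLNK straddles its edge, and the other probes lie to its right on all 4 arrays.

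Promoter sequence is shown for 2 of the genes above the reference and 1 that was not, so that the start regions can be read beside these levels. The part of RefSeq's table (GRCh38.p14) that was searched matched 5 of the 9 genes. The 250 bases before a start are given 5′ to 3′ in the gene's direction. Capitals mark matches on either strand to 4 motifs of B-cell factors: the octamer ATGCAAAT of POU2F2 and POU2F1, the CCCNNGGG core of EBF1 sites, GAGGAA of the PU.1 and SPIB family, and the E-box CAGGTG bound by E2A. CD79A lies at chr19:41877029-41877278 on the plus strand, the first listed BTK start at chrX:101390797-101391046 on the minus strand, and BLNK at chr10:96271570-96271819 on the minus strand.
CD79A: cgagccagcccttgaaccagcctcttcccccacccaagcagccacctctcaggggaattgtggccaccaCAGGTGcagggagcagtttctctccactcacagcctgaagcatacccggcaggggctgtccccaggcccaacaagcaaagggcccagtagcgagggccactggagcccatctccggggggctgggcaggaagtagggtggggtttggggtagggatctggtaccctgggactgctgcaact
BTK: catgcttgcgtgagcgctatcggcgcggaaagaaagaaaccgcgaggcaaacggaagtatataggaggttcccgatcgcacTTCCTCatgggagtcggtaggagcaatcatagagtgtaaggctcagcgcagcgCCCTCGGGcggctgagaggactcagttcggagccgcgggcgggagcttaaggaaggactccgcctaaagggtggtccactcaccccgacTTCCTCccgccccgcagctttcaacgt
BLNK: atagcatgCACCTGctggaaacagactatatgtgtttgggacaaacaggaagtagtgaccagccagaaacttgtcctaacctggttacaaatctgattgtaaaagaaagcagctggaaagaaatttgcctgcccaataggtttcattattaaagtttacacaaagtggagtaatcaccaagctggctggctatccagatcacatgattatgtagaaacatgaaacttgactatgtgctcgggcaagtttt

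CD79A and BLNK each held 1 E-box match. The first listed BTK start held 2 PU.1 matches that begin 169 and 27 bases before it and 1 EBF1 core match that begins 116 bases before it. CD22 and the second listed BTK start held no match to any of the motifs. Of the 3 listed SYK starts, the first held none. The second SYK start held 2 PU.1 matches and 1 E-box match, and the third 1 PU.1 match. Promoters on chromosome 8 were left out of the search, so LYN and BLK, which lie there, were not looked up. CD79B and MS4A1 were not matched. Of the 35116 listed promoters of the same length that remained, 17.5% held the E-box letters, 23.6% the PU.1 letters and 17.1% the EBF1 core. Such matches are therefore common. The octamer was found in 1.63% of promoters and in no window of CD79A, BTK, BLNK, CD22 or SYK. No match says only that these letters are not in this window. Among genes of these factors, EBF1 read 10.86 and 10.73 log2 units on the mock arrays, SPIB 10.13 and 9.77, and POU2F2 7.31 and 7.24, all above the dim reference. Values of the genes of E2A, PU.1 and POU2F1 are not given here. PAX5, a master regulator of B-cell identity, read 5.77 and 5.66, and POU2AF1, the coactivator that works with the octamer factors, read 5.50 and 5.76, both within the reference.

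The deposited arrays share their quartiles, and the array medians lay between 6.006 and 6.007. The PDLIM2 array 2 stood apart: 2.02% of the tested probes lay over 1 log2 unit from the median of the other 3 arrays, against 0.364% to 0.436% for each of the others. Of the markers chosen for the cell line, 5 of 6 Hodgkin and Reed-Sternberg genes (CCL17 being the exception) and 4 of 6 measured B-cell identity genes read above the reference in the mock arrays. Of the other cell types, all 5 plasma cell genes, 3 of 10 T and NK cell genes (CD2, TRAT1 and NKG7) and 2 of 9 myeloid genes (CD14 and CSF1R) did so, while the T-cell receptor chain genes CD3D, CD3E, CD3G and CD247 had no probe above it. These counts take any probe of a gene, and 47.5% of all probes with 1 gene symbol were above the reference. The Hodgkin marker TNFRSF8 was not far over the limit, at 6.86 and 6.61 log2 units on the mock arrays, where CCL22 read 13.80 and 13.73. No gene of these lists was called between the groups in limma.

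The comparison of PDLIM2 with mock asks whether the transfected gene altered these transcripts, and none of the 9 genes was called. The limma test was run over 23615 probes brighter than the median, among which were 13 of the 15 member probes; the remaining 2, of MS4A1, were read from the same fit over all probes. At an adjusted p under 0.05, 0 of the 13 were called, beside 0% of all tested probes higher and 0% lower, and the adjusted p was 0.9998 or more for each. At an unadjusted p under 0.05 the count was also 0, beside 2.82% of all tested probes (limma). Differences of the 15 probes ran from -0.17 (MS4A1) to 0.38 log2 units (CD22), and 0 of the 13 reached 1.5-fold, beside 2.09% of all. The 95% interval of the difference lay within 1 log2 unit of 0, that is within a doubling or halving, for 12 of the 13, CD22 being the exception, beside 94.2% of all tested probes. With 2 arrays against 2 an exact permutation test cannot go below p = 0.333.

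**Figure D2:**
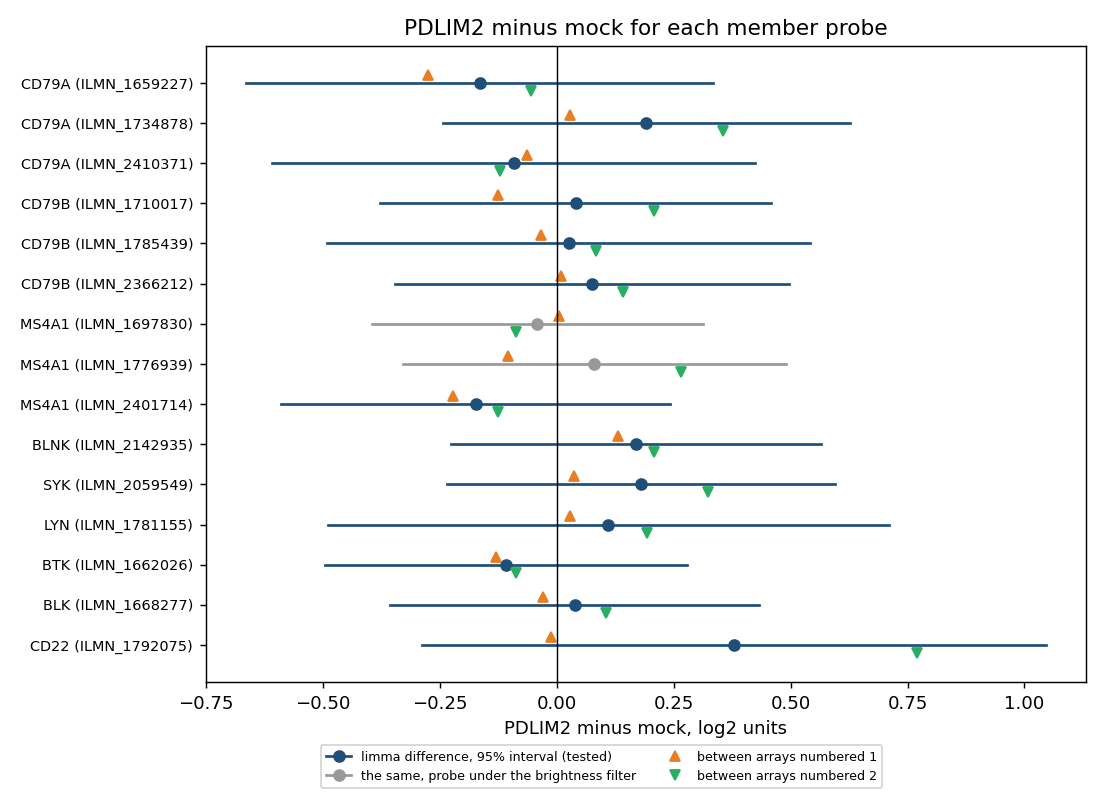
PDLIM2 minus mock in log2 units (horizontal axis) for each of the 15 probes, as the limma difference (circle) with its 95% interval (line; grey for the 2 MS4A1 probes under the brightness filter). Triangles give the difference within the pair of arrays numbered 1 (orange) and within the pair numbered 2 (green); every interval spans 0, and the CD22 triangles are the farthest apart, at -0.013 and 0.77.

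The signalling chain CD79A was read by 3 probes, whose differences had both signs and were not called. The brightest (ILMN_1734878) read 11.57 on both mock arrays and 11.60 and 11.92 on the PDLIM2 arrays 1 and 2, a difference of 0.19 (SE 0.18). Its groups did not overlap, and the gap rests mainly on the PDLIM2 array 2. Without that array the difference was 0.032. ILMN_1659227 read 9.86 and 9.41 in mock against 9.59 and 9.36 with PDLIM2, a difference of -0.17 (SE 0.21) that became 0.060 when the mock array 1 was left out. ILMN_2410371 read 6.61 and 7.03 against 6.55 and 6.91, a difference of -0.093 (SE 0.22) that became 0.11 if the mock array 2 was left out and 0.087 if the PDLIM2 array 1 was. In these probes the groups overlapped.

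Its partner CD79B had 3 probes with small positive differences, none of them called. ILMN_2366212 read 9.11 and 9.22 log2 units in mock and 9.12 and 9.36 with PDLIM2, a difference of 0.075 (SE 0.18). ILMN_1785439 read 7.59 and 7.92 against 7.56 and 8.001 (difference 0.025, SE 0.22), and ILMN_1710017 read 7.60 and 7.50 against 7.47 and 7.71 (difference 0.040, SE 0.18). The groups overlapped for each. These differences were -0.046, -0.19 and -0.080 without the PDLIM2 array 2, in that order. The ILMN_1785439 value was also -0.14 without the mock array 1, and the ILMN_1710017 value -0.0070 without the mock array 2.

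Of the SRC family kinases, LYN was far above the dim reference and BLK at its edge. LYN, which phosphorylates the receptor tails and also acts in inhibitory signalling, read 13.27 and 12.68 in mock and 13.30 and 12.87 with PDLIM2. Array 1 was the higher of the pair in both groups, by 0.59 and 0.43 log2 units, while the groups overlapped and differed by 0.11 (SE 0.25). Leaving out the mock array 2 gave -0.19 for LYN, and leaving out the PDLIM2 array 1 gave -0.10. BLK, the B-lymphoid SRC family kinase, read 6.13 and 6.01 in mock and 6.10 and 6.12 with PDLIM2, a difference of 0.038 (SE 0.17), or -0.022 without the mock array 2.

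SYK and BTK carry the signal from the receptor to phospholipase C gamma, and both read above the dim reference on all 4 arrays without a called difference. SYK read 8.85 and 8.80 log2 units in mock and 8.89 and 9.12 with PDLIM2, a difference of 0.18 (SE 0.18), or 0.064 without the PDLIM2 array 2. BTK read 10.59 and 10.58 against 10.46 and 10.49, a difference of -0.11 (SE 0.16). Neither gene's groups overlapped, SYK lying higher and BTK lower with PDLIM2. The BTK differences within each array number were -0.13 and -0.088. Its interval ran from 0.709 to 1.21 times the mock level, and that of SYK from 0.850 to 1.51 times.

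The adaptor BLNK, which couples SYK to BTK and phospholipase C gamma, read 6.17 and 6.05 in mock and 6.30 and 6.26 with PDLIM2. All 4 values lay close to the edge of the dim range. The groups did not overlap, with a difference of 0.17 (SE 0.17), or 0.11 when the mock array 2 was left out, and the probe was above the olfactory receptor limit on both PDLIM2 arrays, by 0.21 and 0.082 log2 units, but only on 1 mock array. A change of class by so little is no called difference.

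MS4A1, whose product CD20 is a marker of mature B cells, was dim with each of its 3 probes. ILMN_2401714 read 6.24 and 6.02 in mock and 6.01 and 5.90 with PDLIM2, a difference of -0.17 (SE 0.18) without overlap of the groups. That value was -0.067 when the mock array 1 was left out and -0.28 when the mock array 2 was. ILMN_1697830 read 5.82 and 6.004 against 5.83 and 5.92, and ILMN_1776939 read 5.92 and 5.51 against 5.81 and 5.78. Their differences were -0.042 (SE 0.15) and 0.080 (SE 0.18). They turned to 0.049 and -0.12 without the mock array 2, and the first was 0.0027 without the PDLIM2 array 1. At these levels a probe's differences need not follow the transcript.

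The inhibitory receptor CD22 had the highest difference of the 9 genes, and it rested on 1 array. CD22 read 8.37 and 8.45 log2 units in mock and 8.36 and 9.22 with PDLIM2, so 3 arrays lie between 8.36 and 8.45 and the PDLIM2 array 2 lies apart. The difference was 0.38 (SE 0.28; 95% interval -0.29 to 1.05), and -0.053 without the PDLIM2 array 2. Within the pair of arrays numbered 1 it was -0.013, and within the pair numbered 2 it was 0.77. Without the PDLIM2 array 1 the value was 0.81 and limma called it (adjusted p = 0.0495), in a fit that leaves the array that stands apart as the only one of its group. The tested genes whose 4 values, centred on their mean, lay closest to those of CD22 were GBF1, PCBP4 and FCGR2B (probe ILMN_2382403), at root mean square distances of 0.026, 0.027 and 0.031 log2 units over 4 arrays. They were picked as the nearest in a search over the tested genes, so small distances are built in. Each was likewise highest on the PDLIM2 array 2, and the likeness rests mainly on that array. FCGR2B, an inhibitory Fc receptor of B cells, belongs to closely similar genes, so its probe is uncertain. Its brighter probe (ILMN_1660027) differed by -0.085 and ILMN_1804174 by -0.0084, so the likeness holds for 1 of its 3 tested probes.

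Among the 13 tested member probes, 3 had both PDLIM2 values above both mock values (CD79A ILMN_1734878, BLNK and SYK) and 2 had both below (MS4A1 ILMN_2401714 and BTK). Over all tested probes 15.8% lay above in this way and 12.8% below, 28.6% together, and the members' counts are a description only. For 10 of the 15 probes the mean difference between the arrays numbered 2 and 1 was larger than the difference between the groups. This count was not made over all tested probes. From array 1 to array 2, 10 of the 15 probes moved the same way in both groups. That share over all tested probes was not computed either, so neither count marks out the members. The largest shifts from array 1 to array 2 in mock were -0.59 for LYN, -0.45 for CD79A ILMN_1659227 and 0.42 for CD79A ILMN_2410371. With PDLIM2 the same probes shifted by -0.43, -0.23 and 0.36.

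**Figure D3:**
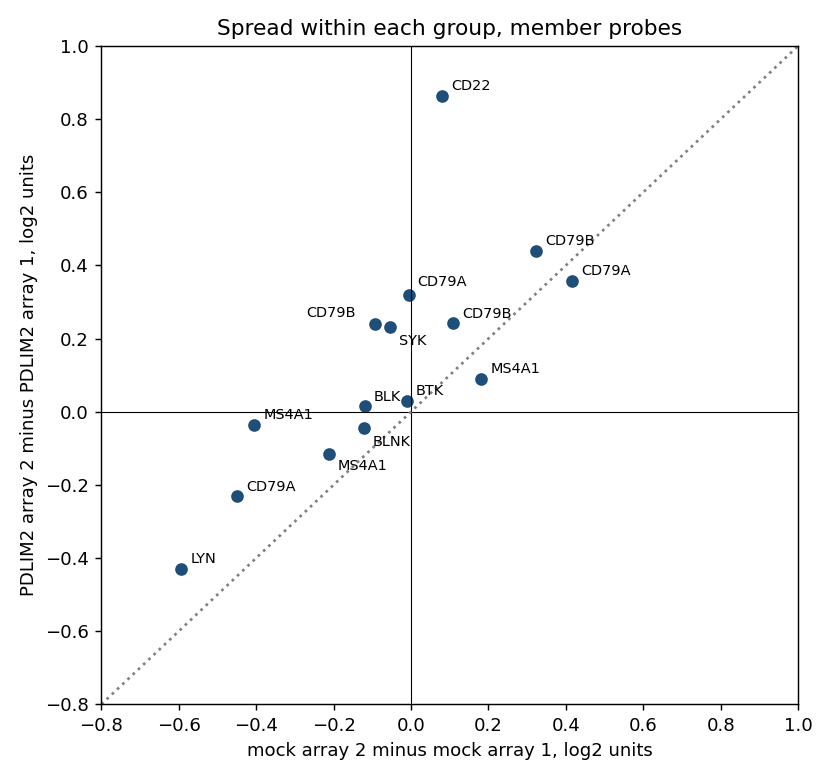
For each of the 15 member probes, array 2 minus array 1 in the mock group (horizontal axis) against the same in the PDLIM2 group (vertical axis), both in log2 units, with the dotted line marking equal shifts. LYN and the dimmer CD79A probes shifted in the same direction in both groups, though not by equal amounts, while CD22 moved by 0.081 in mock and 0.86 with PDLIM2.

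The other genes of the pathway, 83 in 8 lists, gave the surroundings of these members. A probe was found for 68 of them and 56 were tested, each by its brightest tested probe. Limma called 0 higher and 0 lower at an adjusted p under 0.05, and 3 had an unadjusted p under 0.05, where 2.82% of all tested probes did. Differences were positive for 26 genes and negative for 30, with a median of -0.017 log2 units, beside 0.012 over all tested probes. The 9 members had 7 positive and 2 negative differences and a median of 0.11, and their 13 tested probes had 9 positive and 4 negative ones, where 52.8% of all tested probes were positive. The positive values of CD22 and CD79B turned negative without the PDLIM2 array 2, as given above. In 17 of the 56 genes the groups did not overlap, a share near the 28.6% of all tested probes. On the mock arrays 55 of the 68 genes had any probe above the dim reference. This count per gene was not made over the whole series, and the shares given above are per probe. The immunoglobulin chain genes IGHM, IGHD, IGHG1, IGHA1, IGKC, IGLC1 and IGLC2 were listed, but no probe was matched to these symbols. They were therefore not analysed here.

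**Figure D4:**
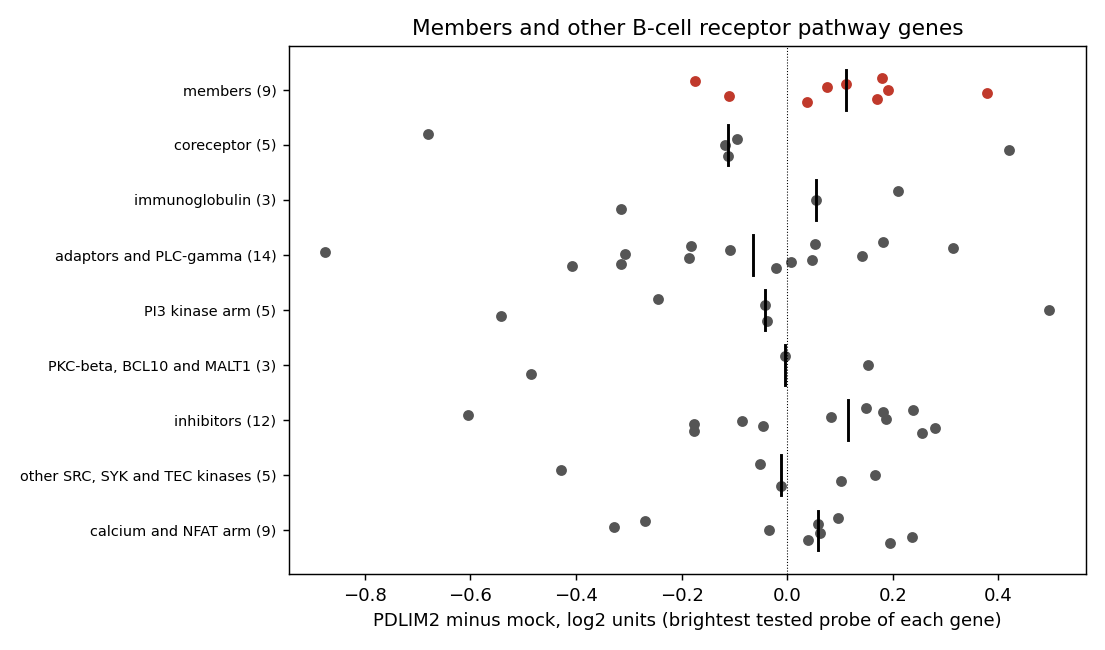
PDLIM2 minus mock in log2 units (horizontal axis) for the brightest tested probe of each gene, with the 9 members in red and 8 lists of other pathway genes in grey; numbers in brackets count genes and black bars mark medians. The members lie between -0.17 and 0.38, and SH3BP2 has the lowest value, -0.87.

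Upstream of the kinases, the coreceptor and receptor-associated genes spread widely without a call. PTPRC, the phosphatase CD45 that primes SRC family kinases, read 7.44 and 7.21 in mock and 7.27 and 6.02 with PDLIM2, a difference of -0.68 (SE 0.38). Only the PDLIM2 array 2 was low, and the value was -0.053 without it. On that array the probe read under the olfactory receptor limit, in the dim range. The dimmer tested probe (ILMN_2340217) had the same pattern, with 7.24 and 6.99 against 7.01 and 6.18. The tetraspanin gene CD53 had the value 0.42 (SE 0.22), and 0.13 when the PDLIM2 array 2 was left out. The surrogate light chain gene IGLL1 had -0.31 (SE 0.28), and 0.12 when the PDLIM2 array 1 was left out, and VPREB3, expressed in B cells, had 0.21 (SE 0.19), and 0.042 when the mock array 2 was left out. IGLL1 is closely similar to immunoglobulin lambda genes, so its probe is uncertain.

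Among adaptors and the lipid kinase arm, SH3BP2, an adaptor that binds SYK, had the lowest value of the 56 genes. It read 7.20 and 7.25 in mock and 6.75 and 5.94 with PDLIM2, so both PDLIM2 values lay below both mock values. The value on the PDLIM2 array 2 lay under the olfactory receptor limit, in the dim range. The difference was -0.87 (SE 0.27; limma, unadjusted p = 0.0142, adjusted p = 0.9998), and -0.47 without the PDLIM2 array 2. The adaptor SHC1 had 0.31 (SE 0.19), and 0.20 when the mock array 2 or the PDLIM2 array 2 was left out, while its dimmer tested probe (ILMN_1812570) had -0.00057. PIK3CD, the leukocyte catalytic subunit of PI3 kinase, read 10.45 and 10.42 against 10.70 and 11.16, a difference of 0.50 (SE 0.20; limma, unadjusted p = 0.0449, adjusted p = 0.9998) that was 0.27 without the PDLIM2 array 2. AKT2, a kinase downstream of PI3 kinase, read 6.82 and 6.80 in mock and 6.78 and 5.75 with PDLIM2, the last under the olfactory receptor limit. Its difference of -0.54 (SE 0.32) shrank to -0.028 when the PDLIM2 array 2 was left out. The adaptor BCL10 and its partner MALT1, which link the receptor to NF-kB, had -0.48 (SE 0.27) and 0.15 (SE 0.23). Without the PDLIM2 array 2 these were -0.10 and -0.056, and MALT1 was -0.069 without the mock array 1.

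Among inhibitors, PAG1, a membrane adaptor that anchors the SRC inhibitor CSK, gave probes that disagree. The brightest (ILMN_1736806) read 9.58 and 9.61 in mock and 9.06 and 8.92 with PDLIM2, without overlap. The difference was -0.61 (SE 0.17; limma, unadjusted p = 0.00862, adjusted p = 0.9998), at -0.52 and -0.69 within the array numbers 1 and 2, and leaving out single arrays gave -0.68 to -0.53. Its other tested probes had -0.25 (ILMN_1673640) and -0.012 (ILMN_2055156), the latter with 8.86 and 9.14 against 9.28 and 8.70. Of the 28 pathway genes with several tested probes, 8 had probes of both signs. CEACAM1, an inhibitory adhesion receptor, had 0.28 (SE 0.20), and 0.063 when the mock array 2 was left out. The SRC family kinase YES1 had -0.43 (SE 0.24) and the TEC family kinase TEC 0.17 (SE 0.18), and in the calcium arm the calcineurin subunit PPP3CA had -0.33 (SE 0.17) and the calcium channel ITPR3 0.24 (SE 0.21). Leaving out the PDLIM2 array 2 gave -0.11 for YES1, and leaving out the mock array 2 gave 0.048 for TEC and 0.034 for ITPR3. None of these was called.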

How the data were processed

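The deposited table holds log2 values of 4 arrays of biotin-labelled RNA. How background and normalization were handled is not given in the sources used here. All 4 columns share their quartiles within 0.05 and were used as deposited. A probe with an empty cell was left out, which left 47230 complete probes. Probes were named from GEO's platform annotation and RefSeq (GRCh38.p14): 30112 had 1 symbol, 8 several, and 17110 were not listed. Differences came from limma 3.58.1 (lmFit, eBayes; R 4.3.3) over 23615 probes with a mean above the median (5.99), without covariates, with two-sided p-values and Benjamini-Hochberg adjustment. Residual degrees of freedom were 2, with 5.10 added by the prior. Its code was tested on simulated data. The number of arrays limits the precision.

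The members and lists were chosen with earlier results of these data known. Named pathway genes are the highest and lowest of each list, and PAG1's other probes were named later. Alternatives were no filter, a 75th percentile filter, quantile normalization, median centring, an offset of 50, limma-trend, a robust prior, the replicate block, each array left out, and other dim references.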

Additional observations from a re-analysis of the deposited data

How the results depend on the processing

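With no filter, a 75th percentile filter, the offset of 50, median centring, quantile normalization, limma-trend, the robust prior and the replicate block, all 235 values computed for 31 named probes kept their direction and stayed uncalled. The deposited arrays share their quartiles, so quantile normalization and median centring could change little. Same-numbered arrays share only a number in the labels; their deviations from the group means correlated across probes (r = 0.476). The replicate block called 0 probes higher and 1 lower over all probes, and 0 members. Fits that omit an array take the lone array of its group to vary as the other group does. Probes called then ranged from 0 to 163 higher and 0 to 647 lower, members called from 0 to 1 (CD22) and other pathway genes called from 0 to 4, with the highest counts without the PDLIM2 array 1. Without it, PTPRC (-1.31), SH3BP2 (-1.28), AKT2 (-1.06) and BCL10 (-0.87) were the genes called, each resting on the array that stands apart. The direction changed with an array left out for 12 of the 31 probes. Their ranges were -0.39 to 0.060 (CD79A ILMN_1659227), -0.30 to 0.11 (CD79A ILMN_2410371), -0.080 to 0.16 (CD79B ILMN_1710017), -0.19 to 0.25 (CD79B ILMN_1785439), -0.046 to 0.20 (CD79B ILMN_2366212), -0.13 to 0.049 (MS4A1 ILMN_1697830), -0.12 to 0.28 (MS4A1 ILMN_1776939), -0.19 to 0.41 (LYN), -0.022 to 0.098 (BLK), -0.053 to 0.81 (CD22), -0.74 to 0.12 (IGLL1) and -0.069 to 0.37 (MALT1). Member probes above the dim reference were 2 with genes of other tissues as reference, whose bright probes raise its limit, and 10 with the other settings. Signal over background is not known for these probes.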
